A study of Mus musculus with 12 samples.

Results

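The genes described here are Ly6g, Ly6c1, Ly6c2, Ly6a, Ly6e, Ly6d and Cd177, cell surface genes of the Ly6/uPAR superfamily. They were taken by name, through Ensembl identifiers matched to symbols, and all 7 were found among the 28987 genes of the deposited table. Ly6/uPAR proteins are small, cysteine-rich proteins that share a fold with toxins of snake venom, and most are held in the outer leaflet of the cell membrane by a glycosylphosphatidylinositol (GPI) anchor. Several serve as the standard antibody targets for sorting mouse blood cells. Ly6G marks neutrophils, Ly6C is abundant on monocytes and on developing granulocytes, and Ly6A is the stem cell antigen Sca-1. Ly6D marks lymphoid progenitors on the way to B cells and progenitors of plasmacytoid dendritic cells, and Ly6E is a broadly expressed, interferon-inducible member. CD177 is a neutrophil glycoprotein that, in human neutrophils, presents proteinase 3 and binds PECAM1.

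RNA sequencing gave 12 libraries, 2 in each of 6 groups, from the bone marrow of individual C57BL/6 mice. Haematopoietic stem and progenitor cells (HSPC, HSCPs in the labels) came from CBL/RUNX1 double mutant, CBL mutant, RUNX1 mutant and wild type (WT) mice. Ly6G+ myeloid cells came from CBL/RUNX1 double mutant and WT mice. HSPC were enriched on CD117, the receptor for stem cell factor, and the labels state that mutant clones were then sorted by flow cytometry, as were the Ly6G+ cells. The labels name the mutated genes and give no allele, promoter or age, and they describe no clone sort for WT HSPC, so mutation and sorting cannot be told apart. CBL is a ubiquitin ligase that ends growth factor receptor signalling, and RUNX1 is a DNA-binding factor required for blood formation.

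Values are TPM, the share of each gene in the transcripts of a library after correction for transcript length, so levels can be compared between genes. Library sums ran between 933370 and 981994 TPM, and read depth is unknown, so no counting error can be given. Replicates differed by a standard deviation of 0.28 to 0.40 on the log2 scale over genes in 4 groups, by 0.75 in RUNX1 HSPC and by 1.03 in CBL/RUNX1 Ly6G+ cells. The libraries of each of these last groups thus differed from each other, and with 2 libraries neither can be named as the one that deviates. Cbl measured 103 and 115 TPM in CBL/RUNX1 HSPC and 73.7 and 81.3 TPM in CBL HSPC, against 31.02 and 17.9 TPM in WT HSPC. Runx1 measured 257 and 248 TPM in CBL/RUNX1 HSPC, and 170.2 and 45.3 TPM in RUNX1 HSPC, against 12.7 and 11.3 TPM in WT HSPC. Neutrophil transcripts were abundant in the HSPC libraries, where 14 neutrophil genes summed to between 94984 and 349935 TPM and 10 stem and progenitor genes to between 106 and 880 TPM. In bulk RNA, fewer cells of a type and less RNA per cell cannot be told apart.

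The 6 Ly6 members lie in 1 cluster on chromosome 15 of the GRCm38 build, and Cd177 lies on the minus strand at chr7:24743983-24760311. Along chromosome 15, the genes are Ly6d at chr15:74762056-74763620 (minus strand), Ly6e at chr15:74955051-74959905 (plus), Ly6a at chr15:74994877-74998031 (minus), Ly6c1 at chr15:75044018-75048830 (minus), Ly6c2 at chr15:75108158-75111970 (minus) and Ly6g at chr15:75155240-75159126 (plus). The cluster spans 397071 bases. The coding sequences of Ly6c1 and Ly6c2 were identical at 387 of 396 bases (97.7%). Those of Ly6g, Ly6a and the Ly6c genes were 79.3% to 83.8% identical to each other, while Ly6e and Ly6d shared 58.8% to 65.4% of aligned bases with the others and with each other. The first 150 coding bases of both Ly6c genes are shown as the stretch of that length where the pair differ most. It holds 6 of their 9 differing bases, given in capitals (GENCODE M21 transcripts on GRCm38).
Ly6c1: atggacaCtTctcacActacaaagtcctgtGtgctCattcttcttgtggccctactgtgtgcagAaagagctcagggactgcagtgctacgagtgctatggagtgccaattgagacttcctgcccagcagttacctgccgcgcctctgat
Ly6c2: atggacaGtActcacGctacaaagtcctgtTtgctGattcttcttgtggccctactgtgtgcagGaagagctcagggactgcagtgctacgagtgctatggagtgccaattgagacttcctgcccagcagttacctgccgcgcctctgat
Of the distinct 31-base words in the transcripts of a gene, 46.8% were shared with another gene for Ly6c1, 23.7% for Ly6c2, 31.9% for Ly6a and 9.55% for Ly6g. Reads from these regions fit more than 1 gene, so the split between Ly6c1 and Ly6c2 is uncertain. Ly6c1 had 936 words that were found in no other gene. For Ly6e the shared proportion was 0.422%, for Cd177 it was 6.93%, and Ly6d had none.

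RefSeq promoter sequence on GRCm38.p6 was matched for 4 of the 7 members, Ly6g, Ly6c1, Ly6c2 and Cd177. The 250 bases upstream of a RefSeq start are shown for them, on the strand of the gene, because RUNX1 is a DNA-binding factor and Ly6g, Ly6c2 and Cd177 were all lower in double mutant HSPC than in WT HSPC in every library. Capitals mark matches on either strand to 5 short motifs: TGTGGT and TGCGGT of RUNX factors, GAGGAA of PU.1, TTGCNNAA of C/EBP factors and TTCNNNGAA of STAT factors.
Ly6g, chr15:75155011-75155260, plus strand: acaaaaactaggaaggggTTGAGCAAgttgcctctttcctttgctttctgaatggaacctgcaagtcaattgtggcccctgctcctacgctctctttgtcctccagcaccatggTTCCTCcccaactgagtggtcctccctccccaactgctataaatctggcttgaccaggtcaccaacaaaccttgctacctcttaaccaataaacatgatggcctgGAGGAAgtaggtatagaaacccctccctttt
Ly6c1, chr15:75048838-75049087, minus strand: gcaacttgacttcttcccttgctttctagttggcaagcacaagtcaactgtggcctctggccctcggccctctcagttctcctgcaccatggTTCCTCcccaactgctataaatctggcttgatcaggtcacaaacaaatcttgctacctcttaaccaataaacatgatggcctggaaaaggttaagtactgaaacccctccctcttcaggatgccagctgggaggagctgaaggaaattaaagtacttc
Ly6c2, chr15:75111972-75112221, minus strand: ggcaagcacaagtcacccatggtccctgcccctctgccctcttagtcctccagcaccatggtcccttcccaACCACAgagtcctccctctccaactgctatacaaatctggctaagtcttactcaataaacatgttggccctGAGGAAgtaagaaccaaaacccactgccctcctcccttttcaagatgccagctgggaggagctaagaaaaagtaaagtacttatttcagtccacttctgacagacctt
Cd177, chr7:24760312-24760561, minus strand: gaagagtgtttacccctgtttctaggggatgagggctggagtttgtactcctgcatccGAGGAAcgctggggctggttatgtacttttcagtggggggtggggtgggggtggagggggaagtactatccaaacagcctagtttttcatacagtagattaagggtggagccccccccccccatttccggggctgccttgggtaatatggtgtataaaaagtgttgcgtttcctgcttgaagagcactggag
The Ly6c2 window held 1 RUNX match, the reverse of TGTGGT at positions -179 to -174 from the start, and 1 PU.1 match. The Ly6g window held 2 PU.1 matches and 1 C/EBP match, and those of Ly6c1 and Cd177 held 1 PU.1 match each. Among 32851 promoter windows of the same length, TGTGGT was found in 14.0%, TGCGGT in 5.10%, TTCNNNGAA in 7.02%, GAGGAA in 23.3% and TTGCNNAA in 9.56%. No 2 of these matches overlapped. RefSeq lists a second start for Ly6g, Ly6c1 and Ly6c2, and the window upstream of it held 2 PU.1 matches and no C/EBP match for Ly6g, 1 PU.1 match for Ly6c1, and 1 RUNX and 2 PU.1 matches for Ly6c2. A match describes the letters only and does not show binding.

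Ly6g, Ly6c2, Cd177 and Ly6e were the abundant members, and together the 7 genes took between 0.119% and 0.527% of a library's TPM. In WT Ly6G+ cells Ly6g was the highest of the members, whereas in WT HSPC Ly6c2 was. In WT libraries of both populations Ly6a lay between 30.1 and 44.6 TPM and Ly6d between 14.2 and 27.1 TPM. Ly6c1 was listed at 0 in all WT and RUNX1 HSPC libraries and in WT Ly6G+ cells. It reached at most 2.05 TPM, in CBL HSPC library 2, and measured 0.949 and 0.895 TPM in CBL/RUNX1 HSPC and 0.0851 and 0.227 TPM in CBL/RUNX1 Ly6G+ cells. It did not pass the filter of 1 TPM in 2 libraries of a fit, so it was not tested, and 6 members were.

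**Figure D1:**
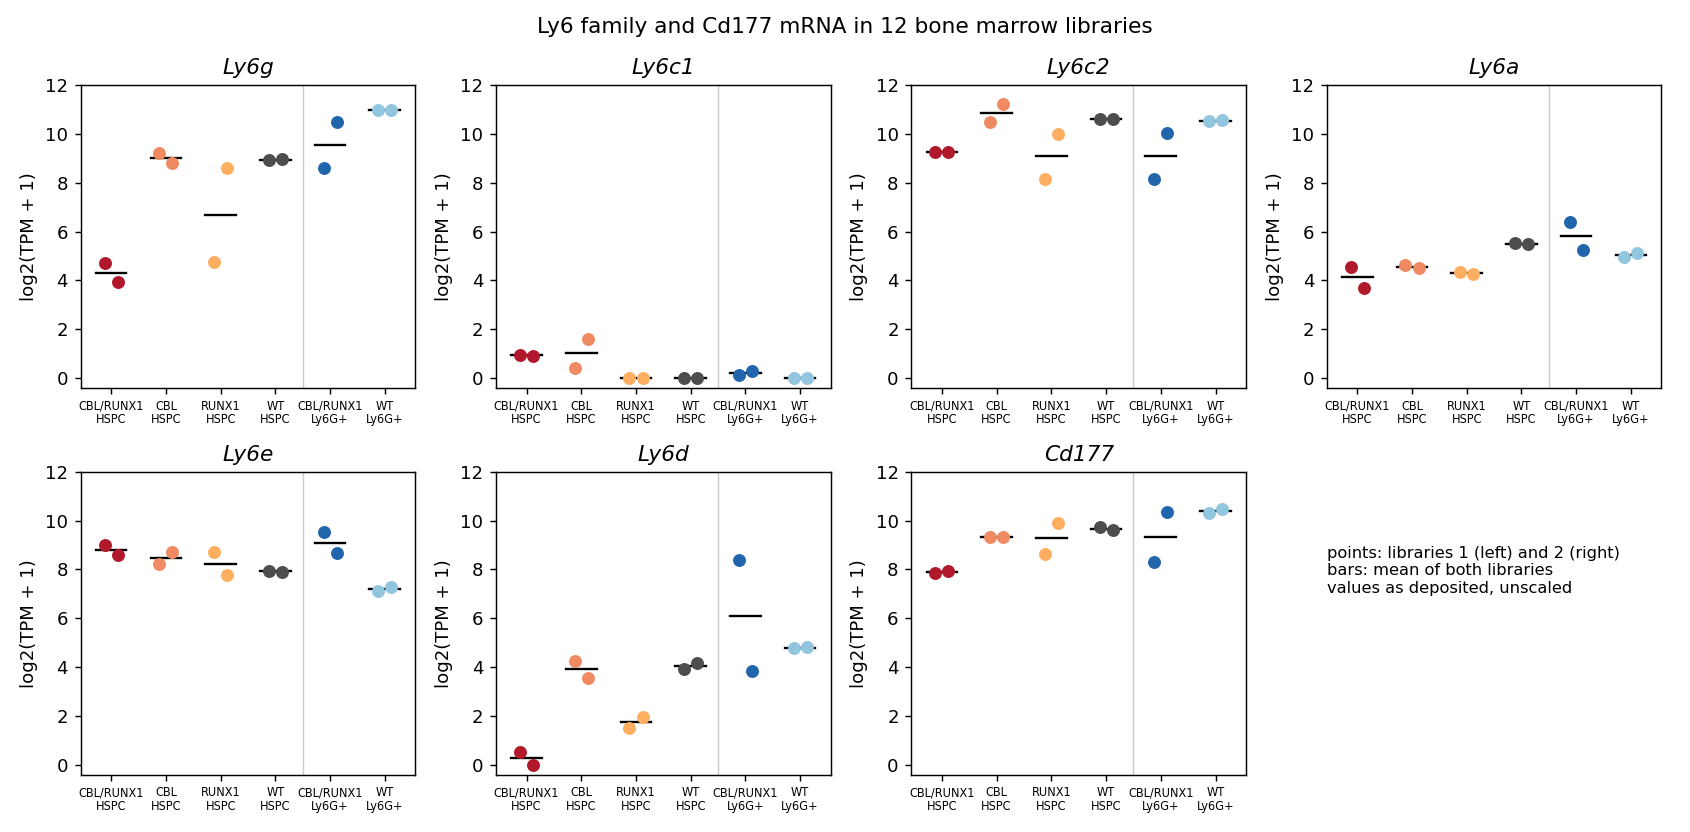
Level of each gene in every library, as log2(TPM + 1) of the deposited values, with points for libraries 1 and 2 of a group and a bar at their mean. On this deposited scale Ly6g is lowest in CBL/RUNX1 HSPC, at 25.2 and 14.2 TPM, with RUNX1 HSPC library 1 close to them at 26.2 TPM.

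The first comparison asked how these genes differed in HSPC that carried both mutations. Ly6g, the neutrophil marker, Cd177, Ly6a and Ly6d were lower in CBL/RUNX1 double mutant HSPC than in WT HSPC. Ly6c2 was lower in both double mutant libraries but did not pass the test, and Ly6e did not pass it either. Of the 6 genes tested, 4 were called lower and 0 higher at an adjusted p under 0.05 (limma, Benjamini-Hochberg over all genes), against 11.7% of all 12421 genes tested called in either direction. The median log2 fold change of the 6 genes was -2.19, against 0.02 over all genes tested. Fold changes are on the scale of log2(scaled TPM + 1), which understates those of low genes, and each SE rests on a spread pooled over the 4 HSPC groups.

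Ly6g measured 25.2 and 14.2 TPM in CBL/RUNX1 HSPC, against 482 and 504 TPM in WT HSPC. The groups did not overlap, and the deposited double mutant levels were close to that of RUNX1 HSPC library 1 and far below all others. The log2 fold change was -5.25 ± 1.18 (SE, adjusted p = 0.0391). Cd177 measured 230.2 and 247 TPM in CBL/RUNX1 HSPC, against 855 and 772 TPM in WT HSPC. Both double mutant values lay below all other HSPC values, and the log2 fold change was -2.40 ± 0.48 (SE, adjusted p = 0.0318). Ly6c2, the Ly6C gene of monocytes and granulocyte precursors, measured 611 and 606 TPM in CBL/RUNX1 HSPC and 1568 and 1541 TPM in WT HSPC. Its groups did not overlap, yet the log2 fold change of -1.99 ± 0.67 (SE) had an adjusted p of 0.0893.

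Ly6a, the stem cell antigen, measured 22.4 and 11.98 TPM in CBL/RUNX1 HSPC, against 44.6 and 44.1 TPM in WT HSPC. Both double mutant libraries lay below both WT libraries, and the log2 fold change was -1.99 ± 0.25 (SE, adjusted p = 0.0130). Ly6d was close to 0 in double mutant HSPC, at 0.457 TPM in library 1 and listed at 0 in library 2, against 14.2 and 17.2 TPM in WT HSPC. Its log2 fold change was -4.19 ± 0.38 (SE, adjusted p = 0.00440). Ly6e stood apart from the others, at 516 and 389 TPM in CBL/RUNX1 HSPC, against 245 and 236 TPM in WT HSPC. Although both deposited double mutant values were higher, after scaling between libraries the log2 fold change was 0.26 (95% interval -0.28 to 0.80, adjusted p = 0.448).

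With any 1 of the 8 HSPC libraries left out, the log2 fold changes kept their direction, between -5.56 and -4.90 for Ly6g, -2.49 and -2.27 for Cd177, -2.33 and -1.61 for Ly6a and -4.46 and -3.94 for Ly6d, but calls were lost. The calls of Ly6g and Cd177 were lost without either WT, either CBL or either CBL/RUNX1 HSPC library, with adjusted p up to 0.200 for Ly6g and 0.187 for Cd177. Those of Ly6a and Ly6d were lost without either WT HSPC library or CBL/RUNX1 HSPC library 2, with adjusted p up to 0.140 for Ly6a and 0.0893 for Ly6d. The log2 fold change of Ly6c2 was -1.97 without RUNX1 HSPC library 1 and -1.99 without library 2. Without scaling, the median of all genes moved by 0.56 in this comparison, 0.33 in CBL against WT HSPC, 0.45 in RUNX1 against WT HSPC, 0.22 in double mutant against CBL HSPC and 0.58 in double mutant against WT Ly6G+ cells. Unscaled directions flipped for Ly6g and Ly6c2 in CBL against WT HSPC and for Ly6e in RUNX1 against WT HSPC, none of them called.

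**Figure D2:**
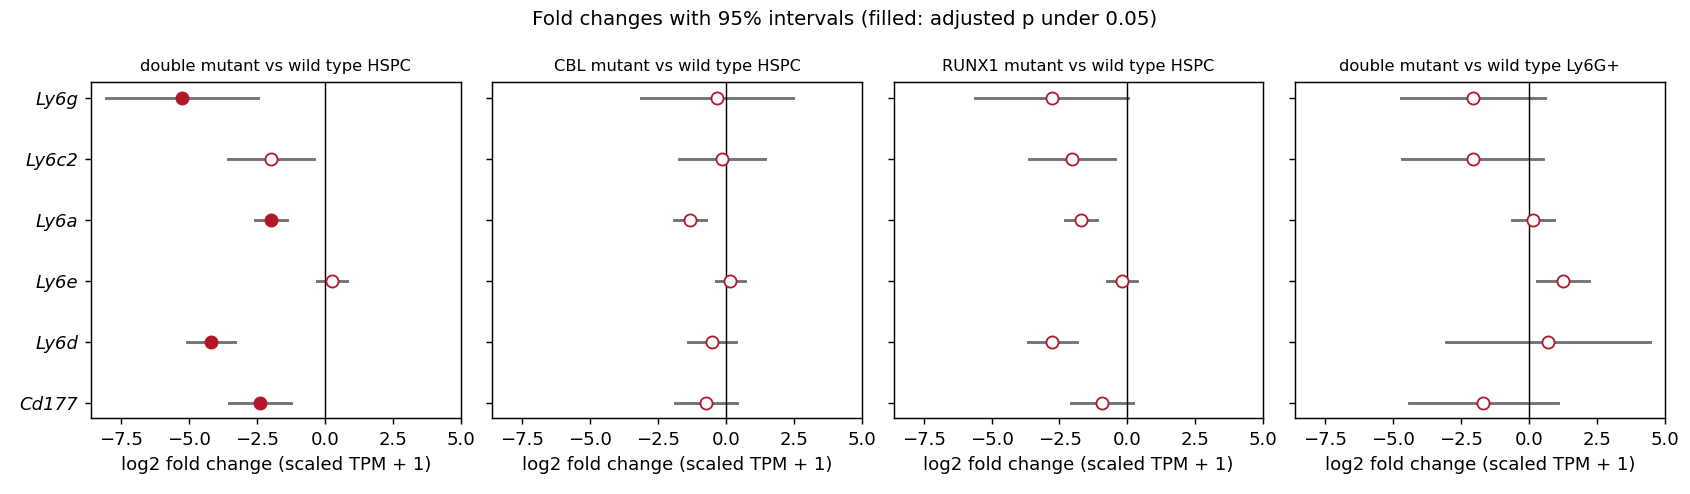
Log2 fold change of each tested gene on the scale of log2(scaled TPM + 1), with 95% intervals, in 4 comparisons of a mutant with WT. Filled points passed an adjusted p under 0.05, which 4 genes did in double mutant HSPC and 0 in the other 3 comparisons.

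Marker genes of other cell types moved in the same libraries. The 14 neutrophil genes summed to 94984 and 107771 TPM in CBL/RUNX1 HSPC, against 325284 and 349935 TPM in WT HSPC, with 0 called higher, 8 called lower and a median log2 fold change of -2.48. Those called lower included Padi4 (-2.98 ± 0.48, SE, adjusted p = 0.0224), Ltf, a granule protein (-3.38 ± 0.60, SE, adjusted p = 0.0258), and S100a9, a calcium-binding protein of neutrophils (-2.53 ± 0.46, SE, adjusted p = 0.0271). Not all of the list fell in deposited TPM. Mpo measured 4796 and 5049 TPM in CBL/RUNX1 HSPC, against 2188 and 1867 TPM in WT HSPC. Elane measured 3151 and 3708 TPM in CBL/RUNX1 HSPC, against 2450 and 2395 TPM in WT HSPC. After scaling, 1 of the 14 genes had a log2 fold change above 0. Of 9 monocyte and macrophage genes, 2 were called higher, the coagulation factor gene F13a1 (log2 fold change 1.93) and the fibronectin gene Fn1 (3.66), and 0 lower. The list summed to 679 and 645 TPM in CBL/RUNX1 HSPC, against 163 and 151 TPM in WT HSPC. F13a1 alone measured 385 and 506 TPM in CBL/RUNX1 HSPC, against 77.9 and 70.9 TPM in WT HSPC. Of the 9 genes, 6 had a log2 fold change above 0, and the median was 0.60. The 6 plasma cell genes summed to 157 and 164 TPM in CBL/RUNX1 HSPC, against 1382 and 1298 TPM in WT HSPC, with 4 of 5 tested called lower. The 5 plasmacytoid dendritic cell genes summed to 233 and 138 TPM in CBL/RUNX1 HSPC, against 96.4 and 86.5 TPM in WT HSPC. Of the 4 tested, 0 were called and 3 had a log2 fold change above 0 (median 0.44). The 9 B lineage genes summed to 40.3 and 26.2 TPM in CBL/RUNX1 HSPC, against 63.4 and 56.7 TPM in WT HSPC. Of the 7 tested 0 were called higher and 2 lower, the B cell receptor component gene Cd79a (-3.75, adjusted p = 0.0349) and Bank1 (-1.07, adjusted p = 0.0363), with a median of -1.11. The 10 stem and progenitor genes, 1 called higher and 1 lower, summed to 336 and 218 TPM in CBL/RUNX1 HSPC, against 130 and 106 TPM in WT HSPC. Cd34 was called higher (2.15 ± 0.53, SE, adjusted p = 0.0468) and Mecom lower (-5.61 ± 0.28, SE, adjusted p = 0.000449), and 8 of the 10 genes had a log2 fold change above 0. The part of these cell type markers in the changes of the Ly6 genes was not tested.

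**Figure D3:**
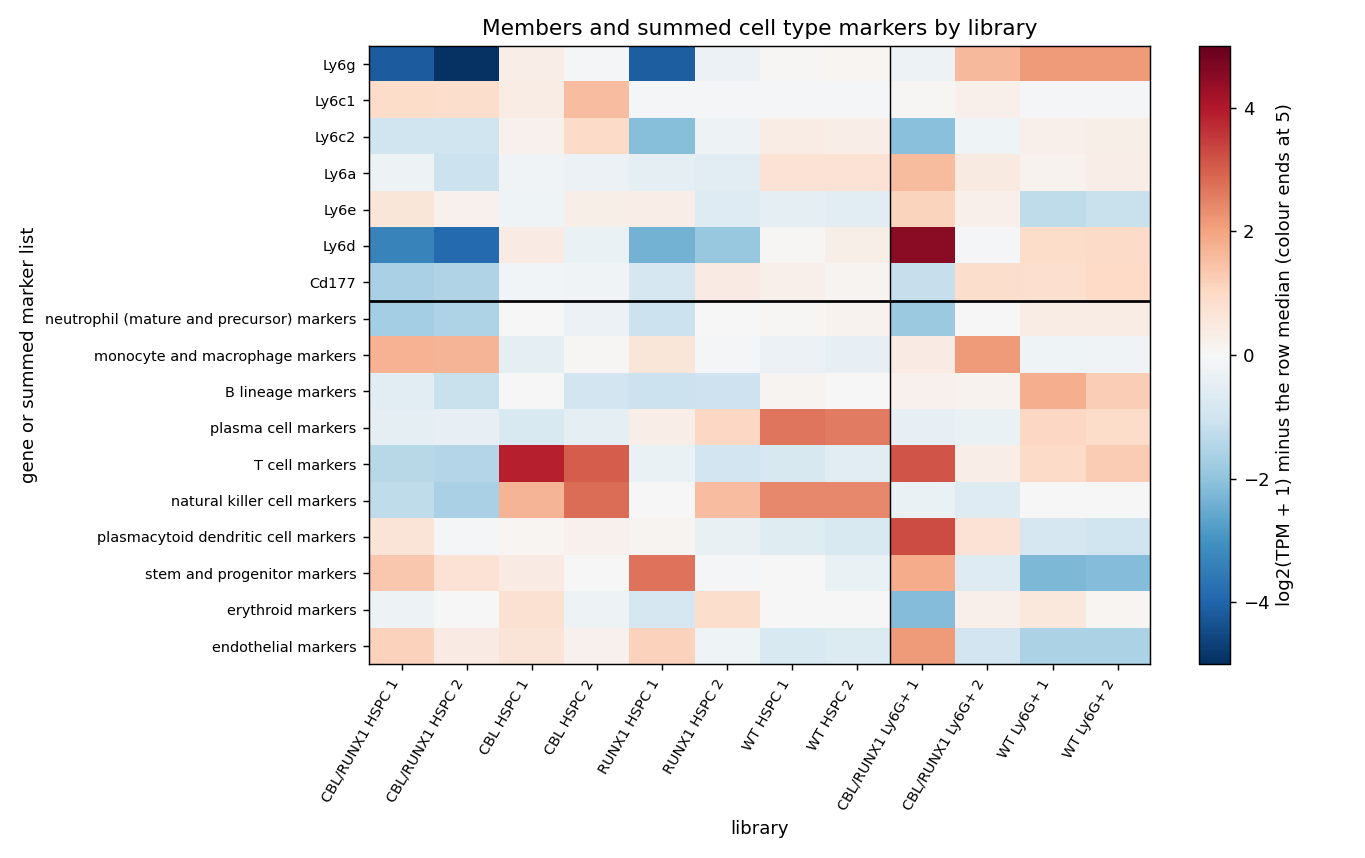
Each of the 7 genes and each summed list of cell type markers, by library, as log2(TPM + 1) minus the median of the row over 12 libraries, with the colour ending at 5. CBL/RUNX1 HSPC are low for Ly6g, Ly6d, Cd177 and neutrophil markers, and CBL/RUNX1 Ly6G+ library 1 is high for Ly6d, plasmacytoid dendritic cell and T cell markers.

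Ratios between genes of the same library are free of scaling between libraries. The ratio of Ly6g to Ly6c2 TPM was 0.0413 and 0.0235 in CBL/RUNX1 HSPC, 0.407 and 0.191 in CBL HSPC, 0.0929 and 0.373 in RUNX1 HSPC, and 0.307 and 0.327 in WT HSPC. Ly6g was thus lower relative to Ly6c2 in both double mutant libraries than in any other. Per 1000 TPM of the 14 neutrophil genes, a sum that S100a8 and S100a9 dominate, Ly6g measured 0.265 and 0.132 in CBL/RUNX1 HSPC, 1.90 and 1.77 in CBL HSPC, 0.176 and 1.23 in RUNX1 HSPC, and 1.48 and 1.44 in WT HSPC. Cd177 on that scale measured 2.42 and 2.29 in CBL/RUNX1 HSPC, 2.10 and 2.48 in CBL HSPC, 2.68 and 3.03 in RUNX1 HSPC, and 2.63 and 2.21 in WT HSPC. The double mutant values of Cd177 lay inside the range of WT HSPC, whereas those of Ly6g lay below it. Ly6c2 per 1000 TPM of neutrophil genes was 6.43 and 5.62 in CBL/RUNX1 HSPC, 4.66 and 9.26 in CBL HSPC, 1.89 and 3.29 in RUNX1 HSPC, and 4.82 and 4.40 in WT HSPC. The double mutant values were here above those of WT HSPC and below that of CBL HSPC library 2. These ratios were chosen after the data were seen, and no test was made on them.

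**Figure D4:**
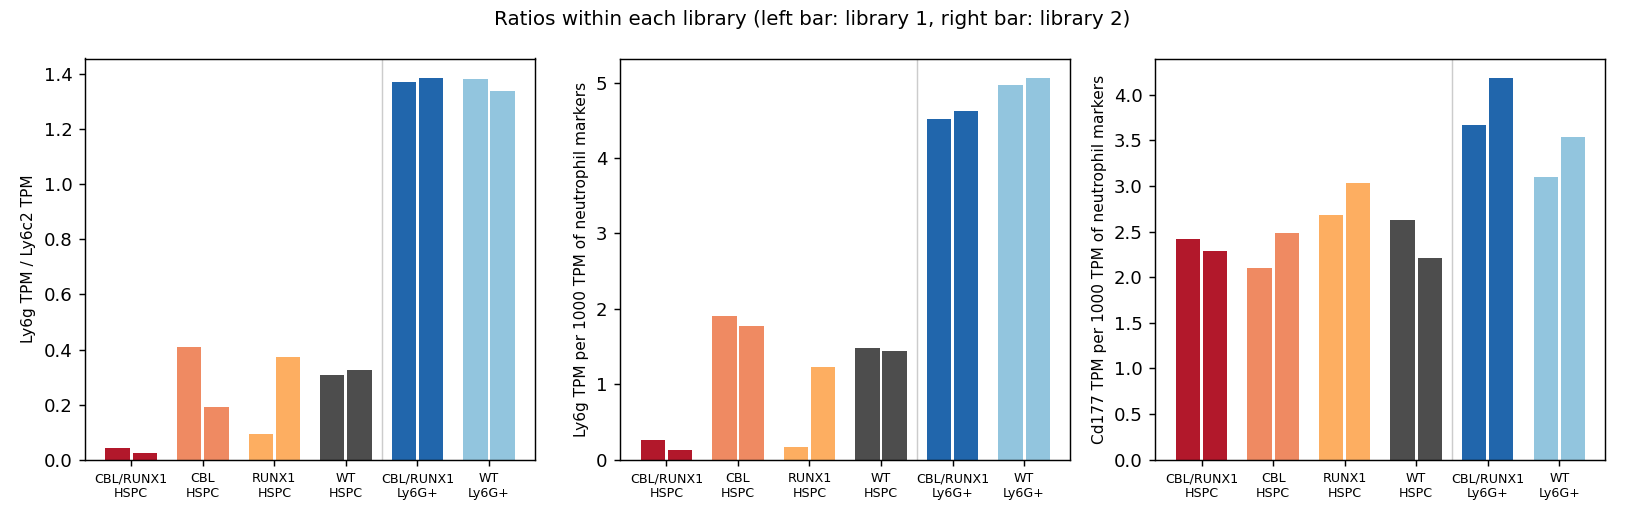
Ratios within each library, with the left bar for library 1 and the right bar for library 2: Ly6g over Ly6c2, and Ly6g and Cd177 per 1000 TPM of 14 neutrophil genes. CBL/RUNX1 HSPC have the lowest ratios of Ly6g to Ly6c2 at 0.0413 and 0.0235, while all 4 Ly6G+ libraries lie between 1.34 and 1.39.

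The single mutants were set against WT HSPC to ask how HSPC with 1 mutation differed. In CBL HSPC 0 of 6 members were called, against 0.531% of all genes. At an unadjusted p under 0.05 in limma there was 1 member, against 1348 of all 12421 genes. Ly6g measured 586 and 452 TPM in CBL HSPC, against 482 and 504 TPM in WT HSPC, and the values overlapped. Ly6c2 measured 1437 and 2362 TPM in CBL HSPC, also overlapping the 1568 and 1541 TPM in WT HSPC. Ly6a was the member at an unadjusted p under 0.05, at 23.7 and 21.5 TPM in CBL HSPC, below the 44.6 and 44.1 TPM in WT HSPC (log2 fold change -1.33 ± 0.25, SE, adjusted p = 0.113). Cd177 measured 649 and 633 TPM in CBL HSPC, below the 855 and 772 TPM in WT HSPC, and its log2 fold change was -0.73 ± 0.48 (SE, adjusted p = 0.593). Ly6d measured 18.3 and 10.6 TPM in CBL HSPC and Ly6e 295 and 419 TPM, neither of which passed the test. The log2 fold changes of Ly6a and Cd177 were -1.31 and -0.72 without RUNX1 HSPC library 1, and -1.33 and -0.73 without library 2. T cell genes summed to 215 and 118 TPM in CBL HSPC, against 7.43 and 9.04 TPM in WT HSPC. Tcf7, Trbc1 and Lck carried that sum, while Cd3e measured 0.041 and 0.039 TPM in CBL HSPC, against 0.22 and 0.15 TPM in WT HSPC, and the part of these genes was not tested.

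Among the HSPC groups, RUNX1 HSPC differed most between their own libraries. Ly6g measured 26.2 and 384 TPM in RUNX1 HSPC, Ly6c2 measured 282 and 1028 TPM and Cd177 measured 400 and 949 TPM. Library 1 resembled double mutant HSPC in Ly6g, while library 2 lay nearer WT HSPC than library 1 did in all 3 genes. In the same libraries Runx1 was at 170.2 and 45.3 TPM, the neutrophil genes summed to 149266 and 312811 TPM, and the stem and progenitor genes to 880 and 125 TPM. Against WT HSPC, 0 of 6 members and 0.0483% of all genes were called. An unadjusted p under 0.05 in limma was reached by 3 members and by 2064 of all 12421 genes. The 3 were Ly6d at 1.85 and 2.93 TPM in RUNX1 HSPC (log2 fold change -2.76 ± 0.38, SE, adjusted p = 0.0921), Ly6a at 19.4 and 17.9 TPM (-1.71 ± 0.25, SE, adjusted p = 0.113) and Ly6c2 (-2.05 ± 0.67, SE, adjusted p = 0.249). Ly6d and Ly6a were low in both RUNX1 libraries, and neither overlapped WT HSPC. Without RUNX1 HSPC library 2 the Ly6g log2 fold change was -4.93, whereas without library 1 it was -0.63. Ly6e measured 421 and 214 TPM in RUNX1 HSPC and overlapped WT HSPC.

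The double mutant was next set against each single mutant. Against CBL HSPC, 1 of 6 members was called lower, against 3.92% of all genes called. An unadjusted p under 0.05 in limma was reached by 5 members and by 3224 of all 12421 genes. The 1 called was Ly6d, at 0.457 TPM and 0 in CBL/RUNX1 HSPC, against 18.3 and 10.6 TPM in CBL HSPC (log2 fold change -3.68 ± 0.38, SE, adjusted p = 0.00918). Ly6g (-4.92 ± 1.18, SE, adjusted p = 0.0659) and Cd177 (-1.67 ± 0.48, SE, adjusted p = 0.0959) did not pass, though neither overlapped between the groups. The Ly6d call was lost without CBL HSPC library 1 (adjusted p = 0.0931) or either CBL/RUNX1 HSPC library (0.0667 and 0.0924), while the log2 fold change stayed at -3.29, -3.86 and -3.43. Without RUNX1 HSPC library 1, the log2 fold changes were -4.91 for Ly6g, -1.84 for Ly6c2 and -1.66 for Cd177. Without RUNX1 HSPC library 2, they were -4.92, -1.84 and -1.67. Against RUNX1 HSPC, 0 of 6 were called, against 9.51% of all genes. At an unadjusted p under 0.05 in limma there were 2 members, against 3702 of all 12421 genes. Those 2 were Ly6d (-1.44 ± 0.38, SE, adjusted p = 0.0586) and Cd177 (-1.48 ± 0.48, SE, adjusted p = 0.0970). With RUNX1 HSPC library 1 left out, log2 fold changes were -4.60 for Ly6g, -1.10 for Ly6c2, -1.79 for Ly6d, -2.34 for Cd177 and 0.71 for Ly6e. With library 2 left out, they were 1.23 for Ly6c2 and -0.62 for Cd177. The sign of Ly6c2 against RUNX1 HSPC therefore depended on which library was kept.

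In sorted Ly6G+ cells, the question was how the genes differed between double mutant and WT cells that had both been selected on the Ly6G protein. Of 6 members, 0 were called in double mutant against WT Ly6G+ cells, with 1 at an unadjusted p under 0.05 in limma. Over all 11744 genes 0% were called, with 1648 at an unadjusted p under 0.05, so a count of 0 members is also what all genes gave. Ly6g measured 389 and 1448 TPM in CBL/RUNX1 Ly6G+ cells, against 2017 and 2026 TPM in WT Ly6G+ cells. Ly6c2 measured 284 and 1044 TPM in CBL/RUNX1 Ly6G+ cells, against 1460 and 1516 TPM in WT Ly6G+ cells. Both genes were lower in both double mutant libraries, and library 1 was the lower of the pair. The log2 fold changes were -2.05 ± 0.97 for Ly6g (SE, adjusted p = 0.379) and -2.07 ± 0.95 for Ly6c2 (SE, adjusted p = 0.377). Cd177 measured 316 and 1312 TPM in CBL/RUNX1 Ly6G+ cells and overlapped the 1256 and 1416 TPM in WT Ly6G+ cells.

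The ratio of Ly6g to Ly6c2 was 1.37 and 1.39 in CBL/RUNX1 Ly6G+ cells, against 1.38 and 1.34 in WT Ly6G+ cells. The double mutant libraries thus differed several-fold in both genes and hardly at all in their ratio. Ly6g per 1000 TPM of neutrophil genes was 4.52 and 4.62 in CBL/RUNX1 Ly6G+ cells, close below the 4.97 and 5.07 in WT Ly6G+ cells. The neutrophil genes themselves summed to 85978 and 313447 TPM in CBL/RUNX1 Ly6G+ cells, against 405687 and 399877 TPM in WT Ly6G+ cells.

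Ly6e was the member at an unadjusted p under 0.05, at 733 and 406 TPM in CBL/RUNX1 Ly6G+ cells, against 139 and 156 TPM in WT Ly6G+ cells. The groups did not overlap, and the log2 fold change was 1.26 ± 0.35 (SE, adjusted p = 0.323). Ly6a measured 82.2 and 36.6 TPM in CBL/RUNX1 Ly6G+ cells, against 30.1 and 34.1 TPM in WT Ly6G+ cells (log2 fold change 0.15 ± 0.29, SE, adjusted p = 0.744). Ly6d measured 331 and 13.2 TPM in CBL/RUNX1 Ly6G+ cells, against 26.4 and 27.1 TPM in WT Ly6G+ cells, so 1 double mutant library lay above both WT libraries and the other below. The Ly6d level in library 1 was the highest of the 12 libraries. In that library 5 plasmacytoid dendritic cell genes summed to 1420 TPM, against 246 TPM in library 2 and 81.7 and 73.0 TPM in WT Ly6G+ cells. Siglech, a defining gene of that cell type, measured 158 and 11.2 TPM in CBL/RUNX1 Ly6G+ cells, against 4.41 and 4.17 TPM in WT Ly6G+ cells. T cell genes summed to 128 and 17.3 TPM, endothelial genes to 211 and 24.2 TPM and stem and progenitor genes to 478 and 85.6 TPM in the double mutant libraries, all higher in library 1. In library 1 the T cell sum came mostly from Cd4, Lck, Tcf7 and Cd28, with Cd3e at 0 and Cd3g at 0.19 TPM, and the endothelial sum from Egfl7 and Pecam1, with Cldn5 at 0 and Cdh5 at 0.38 TPM. B lineage genes summed to 68.0 and 65.8 TPM in CBL/RUNX1 Ly6G+ cells, against 209 and 139 TPM in WT Ly6G+ cells. Of the 9 tested, 0 were called and 0 had a log2 fold change above 0 (median -2.02). The part of these marker genes in the Ly6d and Ly6a levels was not tested. Without library 1, the log2 fold changes were -1.25 for Ly6d, -0.78 for Ly6g, -0.81 for Ly6c2 and 1.16 for Ly6e. Without library 2, they were 2.68 for Ly6d, -3.29 for Ly6g, -3.30 for Ly6c2 and 1.39 for Ly6e. In these fits a lone double mutant library is assumed to vary like the WT libraries.

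The last comparisons set Ly6G+ cells against HSPC of the same genotype. Ly6G chose the sorted cells, so a higher Ly6g level there is a check of the sort. In WT mice Ly6g measured 2017 and 2026 TPM in Ly6G+ cells, against 482 and 504 TPM in HSPC, and the log2 fold change was 2.09 ± 1.24 (SE, adjusted p = 0.213) with the spread pooled over all 12 libraries. The groups lay far apart, and the pooled spread includes the libraries of RUNX1 HSPC and CBL/RUNX1 Ly6G+ cells that differed from each other. With only the 4 WT libraries fitted, the log2 fold change was 2.09 with an adjusted p of 1.7e-05. Of 6 members, 0 were called between the WT populations, against 38.6% of all genes. An unadjusted p under 0.05 in limma was reached by 1 member and by 6438 of all 13155 genes. That member was Ly6e, at 139 and 156 TPM in WT Ly6G+ cells, against 245 and 236 TPM in WT HSPC (log2 fold change -0.65 ± 0.23, SE, adjusted p = 0.0558). Ly6e was called without RUNX1 HSPC library 2 (adjusted p = 0.0494) and without either CBL/RUNX1 Ly6G+ library (0.0464 and 0.0399), and Ly6g without either RUNX1 HSPC library (0.0461 and 0.0491). RUNX1 HSPC library 1 and CBL/RUNX1 Ly6G+ library 1 were also left out together. The log2 fold changes were then 2.14 for Ly6g, 0.85 for Ly6d, 0.82 for Cd177 and -0.60 for Ly6e. Ly6c2 was nearly level, at 1460 and 1516 TPM in WT Ly6G+ cells and 1568 and 1541 TPM in WT HSPC (log2 fold change -0.01, 95% interval -2.02 to 1.996). Cd177 was higher in both WT Ly6G+ libraries without passing the test (log2 fold change 0.77 ± 0.81, SE, adjusted p = 0.478). Cell type markers moved between the WT populations as well. Of 14 neutrophil genes 5 were called higher and 2 lower, of 9 B lineage genes 5 higher and 0 lower, of 7 tested T cell genes 3 higher and 0 lower, and of 6 natural killer cell genes 4 higher and 1 lower. B lineage genes summed to 209 and 139 TPM in WT Ly6G+ cells, against 63.4 and 56.7 TPM in WT HSPC, and T cell genes to 27.9 and 34.5 TPM in WT Ly6G+ cells, against 7.43 and 9.04 TPM in WT HSPC. The part of these genes in the Ly6d and Cd177 levels was not tested.

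In double mutant mice, Ly6g, Ly6a and Ly6d were called higher in Ly6G+ cells than in HSPC, 3 of 6 members against 28.5% of all genes called. Of these 3, Ly6g is the gene of the sort marker, so its call here is again a check of the sort. Ly6g measured 389 and 1448 TPM in CBL/RUNX1 Ly6G+ cells, against 25.2 and 14.2 TPM in CBL/RUNX1 HSPC (log2 fold change 5.26 ± 1.24, SE, adjusted p = 0.0160). Ly6a measured 82.2 and 36.6 TPM in CBL/RUNX1 Ly6G+ cells, against 22.4 and 11.98 TPM in CBL/RUNX1 HSPC (1.71 ± 0.27, SE, adjusted p = 0.00339). Ly6d measured 331 and 13.2 TPM in CBL/RUNX1 Ly6G+ cells, against 0.457 TPM and 0 in CBL/RUNX1 HSPC (5.64 ± 1.002, SE, adjusted p = 0.00521). None of these 3 overlapped between the populations, but neither did Cd177, which was not called, or Ly6c1, which was not tested. How many of all genes were without overlap was not counted. The Ly6d log2 fold change was 3.66 without CBL/RUNX1 Ly6G+ library 1 and 7.60 without library 2, and it was called in both cases. The Ly6g call was lost without either CBL/RUNX1 HSPC library (adjusted p = 0.0593 and 0.104) and without CBL/RUNX1 Ly6G+ library 2 (0.0576). Ly6c2, Ly6e and Cd177 did not pass the test, and the Ly6c2 log2 fold change of -0.12 turned to 1.18 without CBL/RUNX1 Ly6G+ library 1. In a fit of only the groups compared, with fold changes about as large, all 3 calls were lost (adjusted p = 0.115 for Ly6g, 0.115 for Ly6a and 0.125 for Ly6d), and with array weights those of Ly6g (0.0545) and Ly6a (0.0747) were. Without both RUNX1 HSPC library 1 and CBL/RUNX1 Ly6G+ library 1, the log2 fold changes were 1.18 for Ly6c2 and 2.85 for Cd177.

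The difference between these population effects was tested directly. Of 6 members 0 were called for the interaction of double mutation and cell type, against 0.076% of all genes. At an unadjusted p under 0.05 in limma there were 3 members, against 1279 of all 13155 genes. The 3 were Ly6a (2.12 ± 0.38, SE, adjusted p = 0.117), Ly6d (4.84 ± 1.42, SE, adjusted p = 0.298) and Ly6e (0.97 ± 0.33, SE, adjusted p = 0.374). All 3 were relatively higher in the double mutant Ly6G+ cells. Ly6g had an interaction of 3.17 ± 1.76 (SE, adjusted p = 0.622). Without CBL/RUNX1 Ly6G+ library 2, the interaction was 2.35 for Ly6a and 6.77 for Ly6d. RUNX1 HSPC library 1 and CBL/RUNX1 Ly6G+ library 1 were also left out together. The interaction was then 4.41 for Ly6g, 1.84 for Ly6a, 2.77 for Ly6d and 2.03 for Cd177.

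Over the 6 groups, the order of mean levels differed between the genes. Ly6g was highest in WT Ly6G+ cells (2022 ± 5.82 TPM, SD, n = 2 in each group), followed by CBL/RUNX1 Ly6G+ cells (918 ± 749 TPM), CBL HSPC (519 ± 94.8 TPM), WT HSPC (493 ± 15.9 TPM), RUNX1 HSPC (205 ± 253 TPM) and CBL/RUNX1 HSPC (19.7 ± 7.77 TPM). Neighbours in that order overlapped for CBL/RUNX1 Ly6G+ cells and CBL HSPC, and for CBL and WT HSPC. Ly6e had another order, highest in CBL/RUNX1 Ly6G+ cells (570 ± 231 TPM), then in CBL/RUNX1 HSPC (453 ± 90.3 TPM), and lowest in WT Ly6G+ cells (148 ± 11.7 TPM). Ly6e overlapped between all neighbours except WT HSPC and WT Ly6G+ cells.

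Other genes of the family, of the anchor, of known partners and of interferon responses were counted from lists. Of 40 other Ly6/uPAR genes only 7 passed the filter in HSPC, and 0 were called in double mutant against WT HSPC (median log2 fold change -1.60). Ly6f, a gene of the Ly6 family, measured 19.1 and 16.05 TPM in CBL/RUNX1 HSPC, 173 and 194 TPM in CBL HSPC, 14.9 and 151 TPM in RUNX1 HSPC, and 184 and 185 TPM in WT HSPC. It was low in CBL/RUNX1 HSPC and in RUNX1 HSPC library 1, as Ly6g was, and it was picked for this after its values were seen. Cd59b, a regulator of complement lysis, was called higher in double mutant than in RUNX1 HSPC (log2 fold change 1.82 ± 0.22, SE, adjusted p = 0.0136). It measured 126 and 115 TPM in CBL/RUNX1 HSPC, against 27.8 and 34.02 TPM in RUNX1 HSPC. Cd59b was the 1 called of 7 tested, where 9.51% of all genes were called. In double mutant Ly6G+ cells against double mutant HSPC, Plaur, the urokinase receptor gene (2.27 ± 0.70, SE, adjusted p = 0.0412), and Ly6g5b (2.07 ± 0.67, SE, adjusted p = 0.0486) were called higher, and Cd59a and Cd59b lower. These were 2 higher and 2 lower of 8 tested, where 28.5% of all genes were called.

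Of 28 genes that build or attach the GPI anchor, 25 were tested in double mutant against WT HSPC, with 1 called higher, 1 lower and a median log2 fold change of 0.05. The higher one was Pigt (0.75 ± 0.13, SE, adjusted p = 0.0256), a subunit of the transamidase that attaches the anchor, and the lower one Pigq (-0.69 ± 0.17, SE, adjusted p = 0.0482), a subunit of the enzyme of the first step. All 6 partner genes were tested, with Itgam, an integrin subunit that associates with CD177 in human neutrophils, called lower (-2.85 ± 0.53, SE, adjusted p = 0.0282) and the Fc receptor gene Fcgr2b called higher (0.55 ± 0.14, SE, adjusted p = 0.0497). Itgam measured 62.6 and 46.6 TPM in CBL/RUNX1 HSPC, against 283 and 232 TPM in WT HSPC, a gap without overlap. Itgam is also among the 14 neutrophil genes.

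Ly6a and Ly6e are inducible by interferon, so interferon response genes were set beside them. In double mutant against WT HSPC 25 of 28 listed genes were tested, with 0 called higher and a median of -0.39. In double mutant against WT Ly6G+ cells 0 of 27 were called, and the median was 0.56. In Ly6G+ cells against HSPC, 23 were called higher and 1 lower of 27 in double mutant mice (median 2.06), where 28.5% of all genes were called. In WT mice, where 38.6% of all genes were called, 13 were called higher and 1 lower of 27 (median 0.94). Ly6e was called in neither of these population comparisons, while Ly6a was called higher in the double mutant one. The interaction had 0 of 27 called and a median of 0.95.

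Likeness of pattern was measured as Pearson's r of log2(scaled TPM + 1) over the 12 libraries, among 9185 genes, as a description over libraries that fall into 6 groups and 2 cell types. The genes nearest to Ly6g were Plbd1, a granule phospholipase (0.984), the actin-severing gene Gsn (0.983) and St3gal5 (0.982). Those nearest to Cd177 were Selenoo (0.993), the adhesion gene Ceacam1 (0.993) and S100a9 (0.992). Ly6c2 was most like Cyba, a subunit of the phagocyte oxidase (0.959), Aoah (0.958) and Bhlhe40 (0.952). Ly6d was most like Atp1b1 (0.951), Tapt1 (0.941) and Cyb561a3 (0.925), and Ly6a most like Reps1 (0.935), Herc3 (0.880) and Rbm6 (0.877). Ly6e was most like Osgep (0.951), Ociad1 (0.944) and Psmb8, an interferon-inducible subunit of the proteasome (0.940). Psmb8 measured 419 and 185 TPM in CBL/RUNX1 Ly6G+ cells, against 98.5 and 102 TPM in WT Ly6G+ cells, the same order of libraries as Ly6e. Among the members themselves, Ly6g and Cd177 (0.896) and Ly6a and Ly6d (0.860) were most alike, and Ly6e and Cd177 ran most in opposite directions (-0.605).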

How the data were processed

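The submitters' processing notes name kallisto, CASAVA 1.8, bcl2fastq and the build mm10; kallisto's version and the annotation are not given in the sources used here. The deposited table holds TPM for 28987 genes, unscaled between libraries and without read numbers. TPM were scaled with unweighted trimmed mean factors (trimming 0.3 of ratios and 0.05 of levels). limma 3.58.1 in R 4.3.3 was fitted to log2(scaled TPM + 1), pseudocount 1, for genes of at least 1 TPM in 2 libraries of the fit, with group means and trended, robust moderation, and Benjamini-Hochberg adjustment covered every gene tested. Fits used the 8 HSPC, the 4 Ly6G+ or all 12 libraries. The fit was run on simulated data with independent noise for each gene and no shift shared by a whole library. That run cannot speak for RUNX1 HSPC and CBL/RUNX1 Ly6G+ cells, whose own libraries differed most. The members and the gene lists were chosen with earlier results of these data known. All members were named, as were the 3 genes most like each member. Called genes of the lists were named from the up to 3 with the smallest p each way, but not all of these were named. Further list genes were named, after their values were seen, to show what carried a sum or ran against it. Ly6f, Siglech and Psmb8 levels were also added after their values were seen. Separate mice are stated, but whether libraries were prepared together is not. Protein identity was not analysed here; coding identity was computed instead, with GENCODE M21. Scaling, pseudocount, filter, moderation, libraries in the fit and a replicate block were varied. A called gene of the interferon list is not reported here.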

Additional observations from a re-analysis of the deposited data

How the results depend on the processing

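Of the values of single genes under all alternatives, 1045 kept direction and side of the threshold, 71 became called, 35 lost a call and 25 changed sign. Array weights, and leaving out both RUNX1 HSPC library 1 and CBL/RUNX1 Ly6G+ library 1, were chosen after seeing the data; leaving out library 2 of both groups was not run. The 4 calls in double mutant against WT HSPC became 2 with no filter and 1 in a fit of all 12 libraries. CBL against WT HSPC gave 1 call with array weights and 2 in a fit of only the groups compared. Double mutant against CBL HSPC gave 4 calls with array weights, 4 with only the groups compared and 0 with all 12 libraries. Double mutant against RUNX1 HSPC gave 1 call with a pseudocount of 0.1, and double mutant against WT Ly6G+ cells gave 1 with all 12 libraries. WT Ly6G+ cells against WT HSPC gave 1 call with upper-quartile scaling, 3 with array weights, 5 with only the groups compared and 4 without both libraries. Double mutant Ly6G+ cells against double mutant HSPC gave 1 call with array weights, 0 with only the groups compared and 5 without both libraries, and the interaction gave 4 without both libraries. Over the alternatives that kept every library of the groups compared, all genes called ran between 230 and 4982 in double mutant against WT HSPC (1452 as reported), 38 and 662 in CBL (66) and 1 and 14 in RUNX1 against WT HSPC (6), 167 and 2788 in double mutant against CBL HSPC (487) and down to 0 against RUNX1 HSPC (1181). They ran up to 979 in double mutant against WT Ly6G+ cells (0), between 3196 and 8798 in the WT populations (5080), down to 4 in the double mutant populations (3755) and between 5 and 67 for the interaction (10). Fewer libraries in a fit change both the pooled spread and its degrees of freedom. Apart from that the cause was not tested. For fits that left out libraries, the share of all genes called is not given here. Counts of members called in those fits therefore show only how far the calls moved.

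Leaving out 1 library at a time, the calls ranged from 0 to 5 in double mutant against WT HSPC, 0 to 2 in CBL and 0 to 5 in RUNX1 against WT HSPC, 0 to 4 in double mutant against CBL HSPC, 0 to 5 against RUNX1 HSPC, 0 to 6 in double mutant against WT Ly6G+ cells, 0 to 2 in WT Ly6G+ cells against WT HSPC, 2 to 4 in double mutant Ly6G+ cells against HSPC and 0 to 2 for the interaction. 

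Signs changed without scaling for Ly6g (0.062) and Ly6c2 (0.25) in CBL against WT HSPC and for Ly6e (0.32) in RUNX1 against WT HSPC. Ly6c2 in WT Ly6G+ cells against WT HSPC was 0.044 with RLE scaling, 0.062 with a filter of 5 TPM and 0.044 without both libraries, where it was 1.18 (adjusted p = 0.00383) in double mutant Ly6G+ cells against HSPC and 1.13 for the interaction. Leaving out 1 library gave ranges that crossed 0 for Ly6c2 in CBL against WT HSPC (-0.46 to 0.19), double mutant against RUNX1 HSPC (-1.10 to 1.23), WT Ly6G+ cells against WT HSPC (-0.084 to 0.10), double mutant Ly6G+ cells against HSPC (-1.37 to 1.18) and the interaction (-1.39 to 1.13). They also crossed 0 for Ly6e in CBL against WT HSPC (-0.053 to 0.39), RUNX1 against WT HSPC (-0.43 to 0.045) and double mutant against CBL HSPC (-0.13 to 0.33), for Ly6a in double mutant against RUNX1 HSPC (-0.63 to 0.10) and against WT Ly6G+ cells (-0.11 to 0.43), for Ly6d in double mutant against WT Ly6G+ cells (-1.25 to 2.68) and for Cd177 in the interaction (-0.67 to 2.03).

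With the replicate block, the members called stayed at 4 in double mutant against WT HSPC and at 0 in double mutant against WT Ly6G+ cells, where all genes called moved to 31, against 0. All genes called in CBL against WT HSPC moved to 41, against 66, and for the interaction to 6, against 10. Deviations of libraries with the same number correlated at -0.008 to 0.18 over 6 pairs of HSPC libraries, at 0.22 for the 1 pair of Ly6G+ libraries and at -0.013 to 0.46 over 15 pairs in the fit of 12 libraries. Most of these pairs join different genotypes, so low values there cannot exclude a pairing of HSPC with Ly6G+ libraries of the same genotype. Those pairs of the same genotype were not examined separately. Whether the numbers pair libraries was thus left undecided, and the fits without the block treated all libraries as independent. Summing Ly6c1 and Ly6c2 left every count of members called as it was. With 2 libraries a group and no read numbers, the precision of low values such as Ly6c1 is unknown.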
